A study of Mus musculus with 6 samples.

Results

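A set of genes that mark the oligodendrocyte precursor and the early steps of its lineage were followed in cultured mouse embryonic brain cells after knockdown of the repressor REST. There were 10, Olig1, Olig2, Nkx2-2, Nkx6-2, Pdgfra, Cspg4, Gpr17, Bcas1, Enpp6 and Myrf. They were chosen by name, and every probe set that the array annotation assigns to 1 of them and to no other gene was taken. A probe set reads a transcript through several short probes. This gave 16 of the 45037 probe sets tested, for 10 of 18193 named genes. Pdgfra and Bcas1 had 3 probe sets each, Cspg4 and Enpp6 had 2 each, and the other 6 genes had 1.

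RNA came from NSP cells, a name that in this field usually means neural stem and progenitor cells, grown from E12.5 mouse brains. In 3 samples the cells carried a lentivirus with an shRNA against REST, and in 3 a lentivirus with a control shRNA. All were cultured for 6 days after the infection and measured on 1-colour Affymetrix arrays. Separate cultures or embryos are not stated for the replicates, so p-values here reflect how far these samples varied, perhaps for technical reasons alone. Titles number the samples 1, 2 and 3 in each group, and samples of the same number were taken as pairs. Values are log2 signals as deposited, so a difference of 1 is a 2-fold change. The RNA is from bulk cultures, so fewer cells of a type and less RNA per cell cannot be told apart.

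Oligodendrocyte precursors arise from neural progenitors of the ventral and later the dorsal neural tube. Olig2 and Nkx2-2 help to specify them, PDGF acting on the receptor Pdgfra keeps them dividing, and Sox10 and Myrf drive them towards myelin formation. Gpr17, Bcas1 and Enpp6 come on as a precursor commits to differentiation and before the bulk of the myelin proteins. REST represses neuronal genes through a DNA element called RE1 in cells that are not neurons, neural progenitors and glia included.

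Promoter sequence from RefSeq (build GRCm38.p6, 250 bases before to 50 after 1 start site given for a gene) was matched for 6 of the 10 genes, Olig2, Nkx2-2, Nkx6-2, Pdgfra, Cspg4 and Enpp6. For Olig2, Nkx6-2 and Cspg4 that site is the outer 5′ end of the annotated gene. For Pdgfra, Nkx2-2 and Enpp6 it lies 929, 9032 and 47690 bases inside the annotated gene, so the sequence before the outermost start of these 3 genes was not searched. Because the hairpin targets REST, these windows were searched on both strands for the exact letters CAGCACC and GGACAG, which lie in the left and right parts of the RE1 element. The left letters occur in 7.14% of all 32851 promoter windows and the right letters in 22.2%. Cspg4 and Enpp6 are shown because they held a match and Olig2 because it held none while heading the lineage. Capitals mark the matches, on either strand, and each run reads 5′ to 3′ along the strand of the gene.
Olig2, chr16:91225300-91225599, plus strand: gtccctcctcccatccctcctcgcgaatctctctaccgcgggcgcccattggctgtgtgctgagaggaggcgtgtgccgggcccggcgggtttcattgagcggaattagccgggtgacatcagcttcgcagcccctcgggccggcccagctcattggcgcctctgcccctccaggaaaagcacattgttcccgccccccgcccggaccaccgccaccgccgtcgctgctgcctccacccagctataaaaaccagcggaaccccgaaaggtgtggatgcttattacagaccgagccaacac
Cspg4, chr9:56864854-56865153, plus strand: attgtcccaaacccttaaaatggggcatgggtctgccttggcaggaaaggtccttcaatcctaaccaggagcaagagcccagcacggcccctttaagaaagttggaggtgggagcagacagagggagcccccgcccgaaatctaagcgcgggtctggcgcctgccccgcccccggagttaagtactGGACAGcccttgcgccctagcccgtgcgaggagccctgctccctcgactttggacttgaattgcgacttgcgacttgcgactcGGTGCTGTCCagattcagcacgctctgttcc
Enpp6, chr8:46986637-46986936, plus strand: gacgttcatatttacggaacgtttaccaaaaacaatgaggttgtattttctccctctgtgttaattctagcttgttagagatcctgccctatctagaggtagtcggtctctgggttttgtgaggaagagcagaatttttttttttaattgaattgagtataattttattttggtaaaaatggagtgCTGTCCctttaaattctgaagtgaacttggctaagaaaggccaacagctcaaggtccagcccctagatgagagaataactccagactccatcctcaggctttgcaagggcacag
Cspg4 held the right letters at bases 187 to 192 and again at bases 274 to 279, where they overlap a match of the left letters at bases 270 to 276. Both of these overlapping matches are on the opposite strand. Read along that strand the right letters come before the left, so the run does not have the order of an RE1 element. Enpp6 held the right letters at bases 187 to 192, and the other 4 windows held neither. A second motif, the E-box CANNTG read by basic helix-loop-helix proteins such as Olig1 and Olig2, occurs in 72.3% of all windows. It was found 3 times in the Nkx2-2 window, 2 times in that of Pdgfra, 1 time in that of Nkx6-2, and not in the windows of Olig2, Cspg4 and Enpp6. No window held both an E-box and the left or right letters of RE1, so the motifs could not overlap. These are matches of letters, not sites shown to be bound.

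Several facts of the whole series bear on the 10 genes. The 4 probe sets of Rest read 57.3% to 71.5% of control in the REST shRNA arrays and were lower in every pair. No probe set of the table passed an adjusted p of 0.05 in limma (0% of 45037), and 1560 had an unadjusted p under 0.05, which is 3.46% (1.54% higher and 1.93% lower with REST shRNA). The highest of 27 bacterial control probe sets, which have no target in mouse RNA, read 3.24, and a gene was taken as above background where its mean over the 6 arrays exceeded it. All 16 probe sets of the 10 genes lay above it on every array. REST shRNA array 2 had the highest spiked-in hybridisation controls, with a median of 11.52, against 10.95 and 11.09 on the other REST shRNA arrays and 10.85 to 11.24 on the control arrays. Control array 3 had the widest gap between the 3′ and 5′ probe sets of Gapdh, 2.87 in log2 units, against 1.93 to 2.25 on the REST shRNA arrays and 1.72 and 1.94 on the other control arrays.

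None of the 10 genes showed a difference between REST shRNA and control arrays larger than the spread between replicates. Of the 16 probe sets 0 were called by limma with Benjamini-Hochberg adjustment over all probe sets, and 0 had an unadjusted p under 0.05. The smallest unadjusted limma p was 0.326, and every adjusted p rounded to 1.00. In 0 of 16 did the 2 groups fail to overlap, against 8.25% of all probe sets (4.35% with REST shRNA higher and 3.9% with it lower). By the brightest probe set of each gene 4 were higher and 6 lower with REST shRNA, with a median log2 difference of -0.13, while over all 18193 genes 57.2% were higher and the median was 0.04. Exact two-sided permutation p-values over the arrays ran from 0.4 to 1, where 0.1 is the smallest that 3 against 3 allows. The genes differed among themselves in how widely they ranged between arrays.

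**Figure D1:**
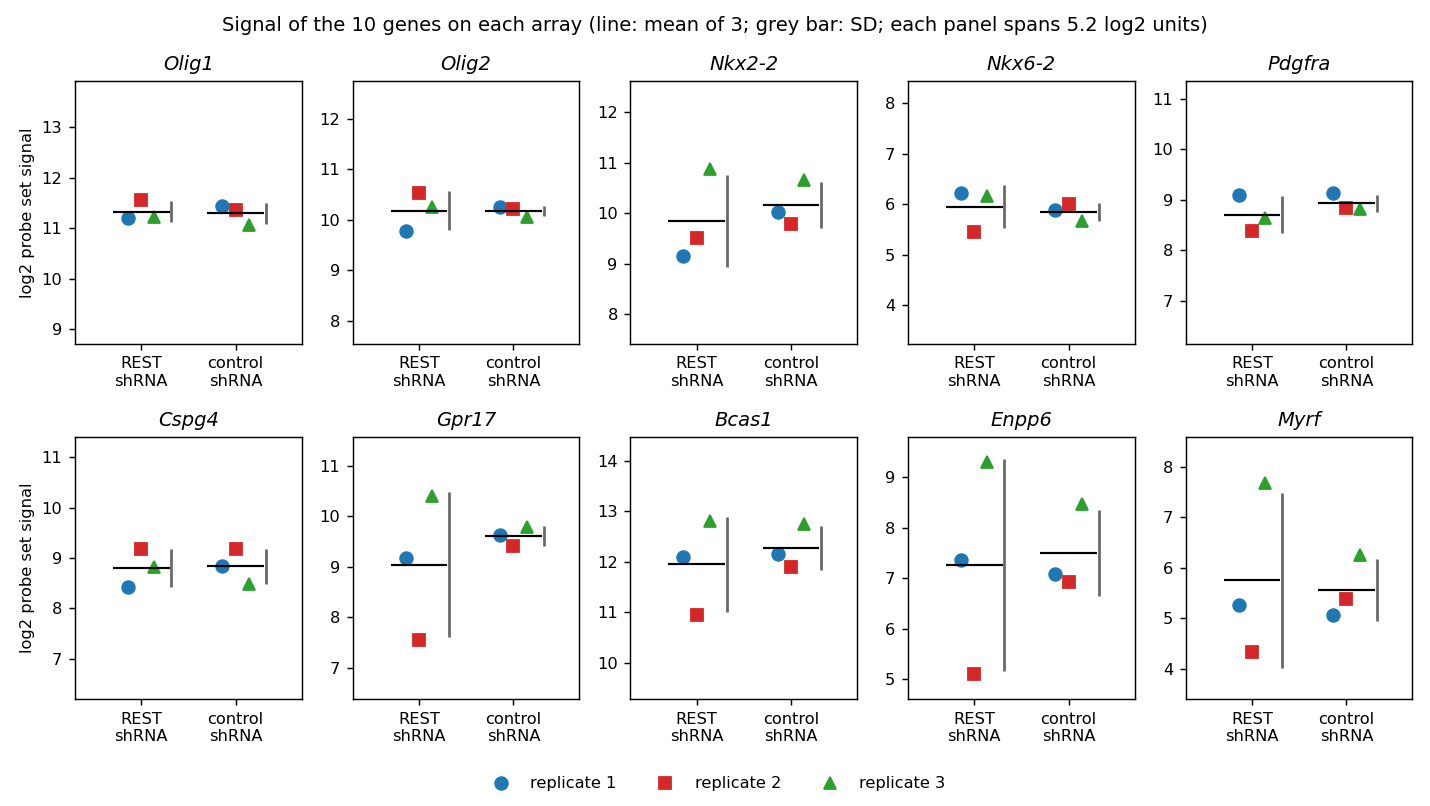
Log2 signal of the brightest probe set of each gene (y axis, each panel spanning 5.2 log2 units) on the 3 REST shRNA arrays (left) and the 3 control arrays (right), with shape and colour for the replicate number, a line for the mean of 3 and a grey bar for the SD. Olig1, Olig2, Nkx6-2, Pdgfra and Cspg4 lie in a narrow band in both groups, while Gpr17, Bcas1, Enpp6 and Myrf are lowest on REST shRNA array 2 and highest on REST shRNA array 3.

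Olig1 and Olig2, the paired basic helix-loop-helix factors that mark the lineage from its first precursors, showed no difference beyond the spread between replicates, and had narrow intervals. They lie on chromosome 16 with 1 other annotated gene between them. Olig2 (probe set 1416232_at) read 9.77, 10.52 and 10.25 on REST shRNA arrays 1, 2 and 3, against 10.24, 10.20 and 10.05 on control arrays 1, 2 and 3. The lowest and the highest values were both in the REST shRNA group, so the control values lay inside its range. The log2 difference was 0.01 ± 0.22 (SE, n = 3 each, limma), and its 95% interval of -0.51 to 0.54 corresponds to 0.704-fold to 1.45-fold of control. Olig1 (1416149_at) read 11.20, 11.56 and 11.22 with REST shRNA, against 11.45, 11.36 and 11.06 with the control hairpin. Its difference of 0.04 ± 0.18 had an interval of 0.759-fold to 1.39-fold. Within pairs 1, 2 and 3 the Olig2 differences were -0.47, 0.32 and 0.20 and those of Olig1 were -0.24, 0.20 and 0.16. Both genes were thus lower with REST shRNA in pair 1 and higher in pairs 2 and 3. Between members, Olig1 and Olig2 had the smallest root mean square difference of centred values over the 6 arrays, 0.155. Olig2 and Cspg4 followed at 0.167. The values were not scaled to the range of a gene, so any 2 genes that vary little lie close on this measure.

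The homeodomain factors did not pass the test either, and Nkx2-2 had the wider spread. Nkx2-2, a repressor that acts in ventral progenitors and in precursors about to differentiate, read 9.15, 9.51 and 10.89 on REST shRNA arrays 1 to 3, against 10.02, 9.79 and 10.66 on control arrays 1 to 3 (1421112_at). The array numbered 3 was the highest in each group, and the REST shRNA values lay on both sides of the control values. Its log2 difference was -0.31 ± 0.47 (SE), with pair differences of -0.87, -0.28 and 0.22. With REST shRNA array 3 left out it was -0.83 (limma, unadjusted p = 0.0339 and adjusted p = 0.994). In that fit 652 of 45037 probe sets were higher and 704 lower at an unadjusted limma p under 0.05. Leaving out REST shRNA array 1 turned the Nkx2-2 difference to 0.039, and leaving out control array 3 gave -0.055. Nkx6-2, also called Gtx and found in differentiating oligodendrocytes, read 6.22, 5.45 and 6.17 with REST shRNA, against 5.88, 5.99 and 5.66 in control (1427420_at). It was highest on REST shRNA array 1 and lowest on REST shRNA array 2. Its difference was 0.10 ± 0.24, with pair differences of 0.34, -0.54 and 0.51.

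The genes of the surface proteins used to identify living precursors did not pass the test either. Pdgfra, the receptor for PDGF-A, had its brightest probe set (1421917_at) at 9.09, 8.37 and 8.63 on REST shRNA arrays 1 to 3, against 9.12, 8.83 and 8.82 on control arrays 1 to 3. This was the 1 gene of the 10 whose brightest probe set was lower with REST shRNA in all 3 pairs, with differences of -0.03, -0.45 and -0.18, and the groups still overlapped. Over all 18193 genes 1596 were lower in all 3 pairs by the brightest probe set, a like share. The log2 difference was -0.22 ± 0.22 (SE), an interval of 0.594-fold to 1.23-fold, with an unadjusted limma p of 0.349. The other 2 probe sets of Pdgfra differed by -0.07 ± 0.24 (1421916_at) and 0.03 ± 0.16 (1438946_at), so the 3 probe sets did not share a sign. Leaving out REST shRNA array 1 gave -0.42 for the brightest probe set, and leaving out REST shRNA array 2 gave -0.061. Fibroblasts also carry this receptor. By group means all 6 fibroblast markers read higher with REST shRNA, with a median of 0.24 and 0 called, and the groups did not overlap for Col1a1 (0.42 ± 0.18, SE). The pair medians were 0.54, 0.19 and -0.03, and 3 of the 6 markers were lower in pair 3. Of the 6, 4 were above background and Col3a1 and Lum were not. Their summed linear signal was 110 to 270 on the REST shRNA arrays and 107 to 225 on the control arrays, most of it from Fbln1, which read 7.01, 7.80 and 6.09 with REST shRNA, against 6.73, 7.53 and 5.91 in control. The part of fibroblasts in the Pdgfra values was not tested.

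Cspg4 encodes the NG2 proteoglycan of precursors, which pericytes and other mural cells also carry. Its brightest probe set (1423341_at) read 8.43, 9.17 and 8.82 with REST shRNA, against 8.83, 9.18 and 8.48 in control. The arrays numbered 2 were the highest of each group. This gave a log2 difference of -0.03 ± 0.26 (SE), with pair differences of -0.41, -0.01 and 0.34. A dimmer probe set (1450944_at) differed by -0.24 ± 0.22 and was lower in all 3 pairs, at -0.15, -0.33 and -0.23, as were 4976 of all 45037 probe sets. The difference of this dimmer probe set was -0.37 with REST shRNA array 2 left out and -0.053 with control array 2 left out. In the fit blocked on replicate number its unadjusted limma p was 0.227. Acta2, the actin of smooth muscle, split the arrays in another way, at 3.55, 8.00 and 3.71 with REST shRNA and 8.49, 8.40 and 4.07 in control. Of 9 pericyte and mural markers 4 were above background, and Kcnj8, Abcc9, Anpep, Higd1b and Vtn were not. Their summed linear signal was 277 to 462 on the REST shRNA arrays and 226 to 792 on the control arrays, and its part in the Cspg4 values was not tested.

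Gpr17, Bcas1, Enpp6 and Myrf, the genes of committed and differentiating cells, had wider ranges between arrays than Olig1 and Olig2. Gpr17, a G protein-coupled receptor that is switched on in committed precursors and off again in mature cells, read 9.17, 7.55 and 10.40 on REST shRNA arrays 1 to 3, against 9.64, 9.40 and 9.79 on control arrays 1 to 3 (1456833_at). REST shRNA array 2 was below and REST shRNA array 3 above every control array. Gpr17 differed by -0.57 ± 0.65 (SE), with pair differences of -0.46, -1.85 and 0.61. When REST shRNA array 2 was left out it read 0.18. With REST shRNA array 3 left out it read -1.25 (limma, unadjusted p = 0.0374 and adjusted p = 0.994). This value and that of Nkx2-2 in the same fit were the only unadjusted limma p under 0.05 for the 10 genes in 16 alternative fits.

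Enpp6, a choline-specific phosphodiesterase of newly forming oligodendrocytes, had the widest range of the 10. Its brighter probe set (1436090_at) read 7.36, 5.10 and 9.30 with REST shRNA, against 7.09, 6.92 and 8.47 in control, an 18.4-fold span from the lowest to the highest array. Its second probe set (1438785_at) read 7.30, 4.98 and 8.22 with REST shRNA, against 7.25, 6.68 and 8.30 in control. Both probe sets put REST shRNA array 2 lowest and the arrays numbered 3 highest in each group. Their differences of -0.24 ± 1.01 and -0.58 ± 0.83 (SE) have intervals of 0.162-fold to 4.44-fold and 0.171-fold to 2.62-fold, so a 2-fold change in either direction lies within both intervals. In pair 2 the differences were -1.82 and -1.70, and in pair 3 they were 0.83 and -0.08.

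Bcas1, which marks early myelinating cells, had its brightest probe set (1428792_at) at 12.09, 10.95 and 12.81 on REST shRNA arrays 1 to 3, against 12.16, 11.90 and 12.75 on control arrays 1 to 3. It differed little in pairs 1 and 3, by -0.07 and 0.05, and by -0.95 in pair 2. Between the groups it differed by -0.32 ± 0.47 (SE). The other 2 probe sets were lowest on control array 2 and not on REST shRNA array 2, with differences in pair 2 of 0.24 (1430758_x_at) and 0.07 (1453641_at). All 3 probe sets put the arrays numbered 3 highest in each group.

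Myrf, the membrane-bound transcription factor that turns on myelin genes, read 5.25, 4.32 and 7.67 with REST shRNA, against 5.06, 5.39 and 6.24 in control (1439506_at). It had the same order as Enpp6 among the REST shRNA arrays. Myrf differed by 0.19 ± 0.82 (SE), and the pair differences were 0.20, -1.06 and 1.43. Leaving out REST shRNA array 2 gave 0.90, and leaving out REST shRNA array 3 gave -0.78.

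**Figure D2:**
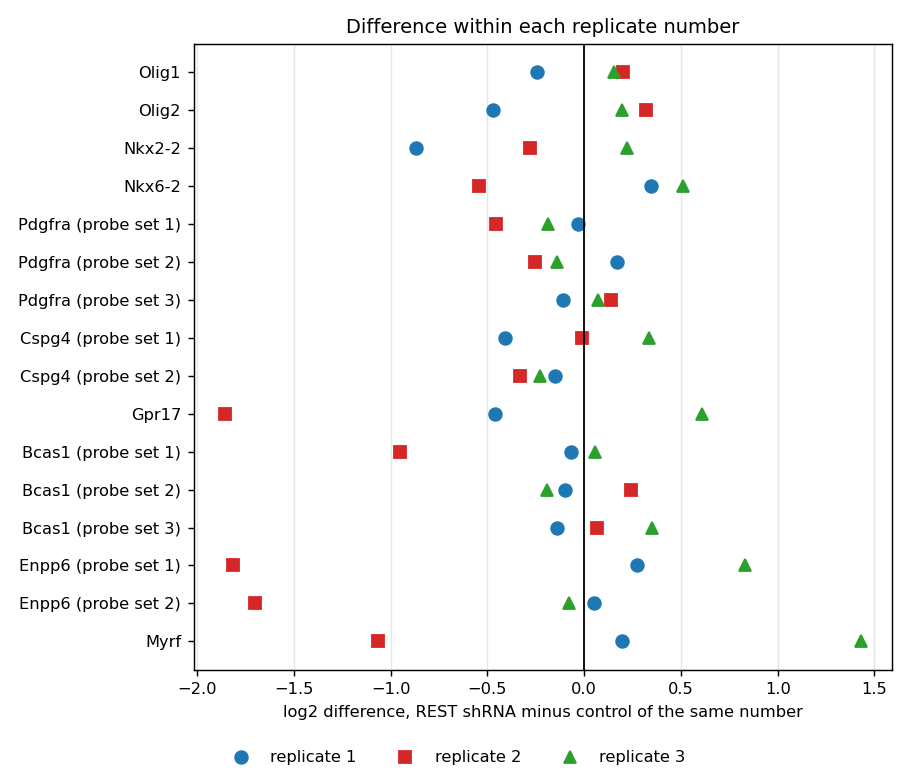
Log2 difference of each probe set between the REST shRNA array and the control array of the same number (x axis), with probe sets of a gene numbered from the brightest and shape and colour for the number. In pair 2 Gpr17, both probe sets of Enpp6, Myrf and the brightest probe set of Bcas1 lie between -1.85 and -0.95, and in pair 3 Myrf lies at 1.43.

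The 10 genes lay on different sides of 0 in different pairs. By the brightest probe set 7 were lower with REST shRNA in pair 1, 8 in pair 2 and 1 in pair 3, that last one being Pdgfra. Over all 18193 genes 8699, 9321 and 6949 were lower in pairs 1, 2 and 3, so pair 3 leaned higher over the whole table. The medians of the 10 differences were -0.16, -0.50 and 0.28 in pairs 1, 2 and 3, against 0.01, -0.01 and 0.11 over all genes. For Gpr17, Bcas1, Enpp6 and Myrf the medians were 0.06, -1.44 and 0.72. For the other 6 genes they were -0.33, -0.15 and 0.21. Leaving out REST shRNA array 2 turned the median difference over the 10 genes to 0.06, and leaving out REST shRNA array 3 gave -0.47.

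By the brightest probe set, REST shRNA array 2 was the lowest of the 6 arrays for 6 of the 10 genes (Nkx6-2, Pdgfra, Gpr17, Bcas1, Enpp6 and Myrf), where 30.7% of the 13831 genes above background were lowest on it. By the same probe sets REST shRNA array 3 was the highest for 5 (Nkx2-2, Gpr17, Bcas1, Enpp6 and Myrf), against 28.0% of those genes above background. The pooled SD within groups was 0.20 for Olig1, 0.28 for Olig2 and 0.28 for the brightest probe set of Pdgfra, which stand at percentiles 22.7, 42.4 and 43.6 among probe sets above background. It was 1.02 for Gpr17, 1.30 for Myrf and 1.60 for Enpp6, at percentiles 97.2, 98.7 and 99.4. The brightest probe sets of Nkx2-2 and Bcas1 stood at percentiles 92.3 and 92.5, and those of Nkx6-2 and Cspg4 at 53.6 and 60.8. Wide spread among these probe sets thus included Nkx2-2 beside the 4 genes of committed cells. No test of this contrast was made.

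**Figure D3:**
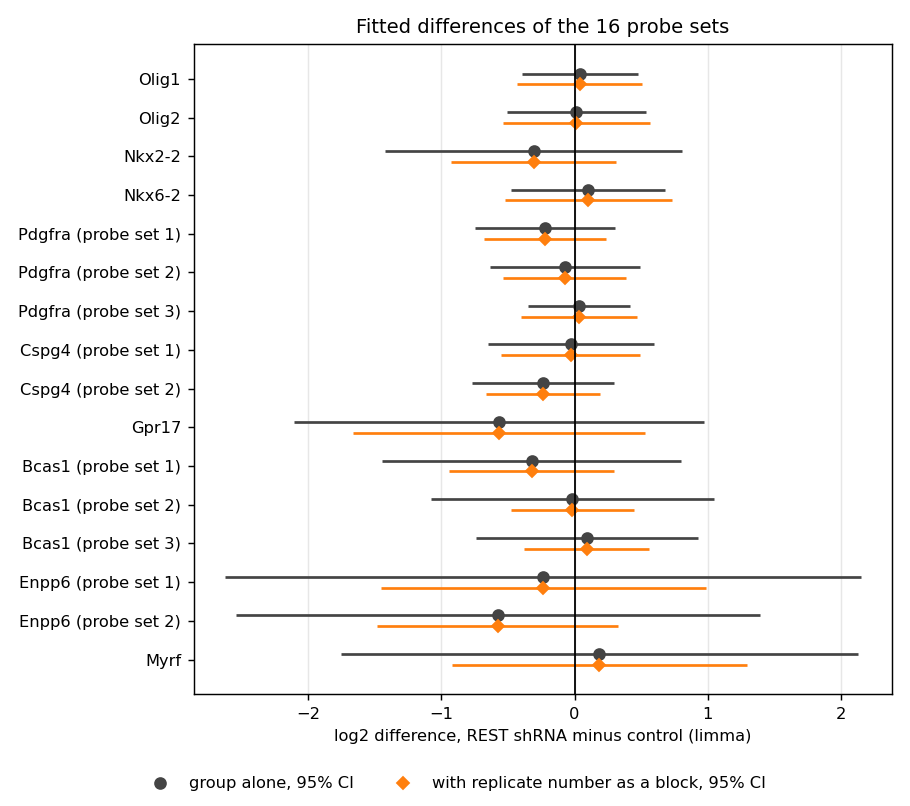
Log2 difference between REST shRNA and control in limma for the 16 probe sets (x axis), as points with 95% intervals, for the fit on group alone (circles) and for the fit that also takes the number as a block (diamonds). All intervals include 0, and they are narrow for Olig1 and Olig2 and wide for Gpr17, Enpp6 and Myrf.

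Much of this spread lay between replicate numbers, though not alike in the 2 groups. By the brightest probe set, though not by every dimmer one, the SD was larger among REST shRNA than control arrays for all 10 genes. It was 1.43 against 0.20 for Gpr17, 2.10 against 0.85 for Enpp6 and 0.38 against 0.10 for Olig2. For Olig1 it was close, at 0.202 and 0.199. Gpr17 on array 3 exceeded array 2 by 2.85 with REST shRNA and 0.39 in control. This contrast between groups was not tested. For all 16 probe sets the number accounted for more of the sum of squares over the 6 arrays than the hairpin did, which holds for 76.9% of probe sets above background. The number takes 2 of the 5 degrees of freedom and the hairpin 1, so a larger share for the number is the usual case. By the brightest probe sets the number held a median of 71.6% and the hairpin 2.46%, against 46.4% and 9.43% over genes above background. For Enpp6 the shares were 80.4% and 0.81%, for Bcas1 80.1% and 6.77%, for Nkx2-2 80.3% and 6.39%, and for Olig2 41.7% and 0.10%. The hairpin held its largest share among the brightest probe sets, 18.8%, for Pdgfra. Taking the number as a block narrowed the interval of 12 of the 16 probe sets, to -1.46 to 0.98 for the brighter one of Enpp6 and to -0.92 to 0.31 for Nkx2-2. It widened the other 4, to -0.43 to 0.51 for Olig1, -0.54 to 0.56 for Olig2, -0.53 to 0.73 for Nkx6-2 and -0.40 to 0.47 for the third of Pdgfra. No probe set of the 10 genes or of the table was called with the block. The smallest unadjusted limma p of a member with the block was 0.170, for the second probe set of Enpp6.

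**Figure D4:**
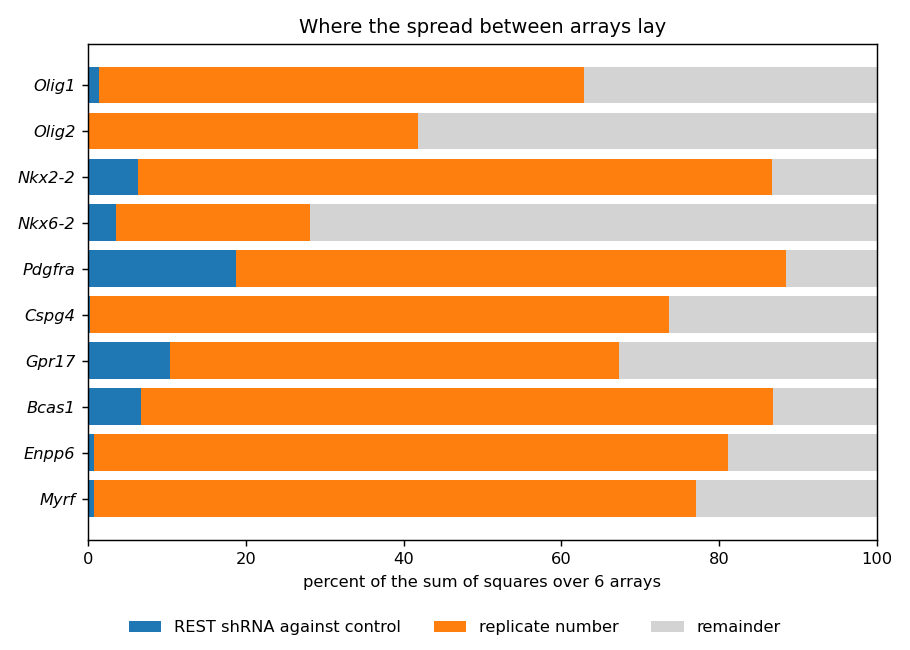
Percent of the sum of squares over 6 arrays (x axis) that lay between REST shRNA and control, between replicate numbers, and in the remainder, for the brightest probe set of each gene. The share between the hairpins runs from 0.10% for Olig2 to 18.8% for Pdgfra, and the share of the number from 24.5% for Nkx6-2 to 80.4% for Enpp6.

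Further genes of the lineage were read from lists, with 0 called in any list. Among 12 other early lineage genes 5 were higher and 7 lower with REST shRNA, with a median of -0.18 and pair medians of 0.14, -0.56 and 0.05. Sox10, the factor shared by the whole lineage, read 8.86, 7.14 and 10.22 on REST shRNA arrays 1 to 3, against 8.22, 8.24 and 9.49 on control arrays 1 to 3, a difference of 0.09 ± 0.76 (SE). It was lowest on REST shRNA array 2 and highest on REST shRNA array 3, as were the brightest probe sets of Gpr17, Bcas1, Enpp6 and Myrf. The 4 genes of this list with the smallest p were Pcdh15 at -0.69 ± 0.36, Zfp536 at 0.41 ± 0.24, Sox6 at -0.33 ± 0.21 and Cacng4 at 0.55 ± 0.37. Of these Pcdh15, lower with REST shRNA, had groups that did not overlap. Among 10 genes of committed and newly formed cells 4 were higher and 6 lower, with pair medians of 0.18, -0.98 and 0.17. Here Rras2, a small GTPase, was higher in all 3 pairs with groups that did not overlap (0.49 ± 0.19, SE), and Cnp, Tcf7l2 and Itpr2 differed by -0.28 ± 0.44, -0.27 ± 0.45 and -0.22 ± 0.39.

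Myelin genes read higher with REST shRNA in the median. Of 13 measured, 10 were higher and 3 lower, with a median of 0.35 and pair medians of 0.60, -0.53 and 0.87, and 10 were above background. Ermn, which encodes a cytoskeletal protein of myelinating cells, had groups that did not overlap (0.60 ± 0.18, SE) and lay below background. Aspa, the enzyme that cleaves N-acetylaspartate, differed by -1.05 ± 0.50, Mobp, a myelin protein, by 1.77 ± 1.01 and Tspan2, a tetraspanin, by 0.66 ± 0.47. Mobp read 9.30, 6.52 and 10.01 with REST shRNA, against 6.98, 5.43 and 8.09 in control, and was higher in all 3 pairs. That held for 5 of the 13 myelin genes, Mobp included, and for 2477 of all 18193 genes. It did not hold for Gpr17, Enpp6, Bcas1 and Myrf. In pair 2, 8 of the 13 myelin genes were lower and 5 higher. Among the lower ones were Fa2h at -2.34, Cldn11 at -1.37, Mag at -1.03 and Mbp at -1.02. Whether the myelin genes differ from the 10 early genes was not tested.

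Signals that act on precursors gave no call. In the hedgehog pathway, which induces Olig2 and Nkx2-2 in ventral progenitors, 6 of 11 genes were higher and 5 lower, with a median of 0.04. The 4 with the smallest p were the receptor Ptch1 at -0.44 ± 0.22 (SE), lower in all 3 pairs, the ligand-binding inhibitor Hhip at -0.29 ± 0.17, Gli1 at 0.26 ± 0.16 below background, and the co-receptor Cdon at 0.21 ± 0.21. Among PDGF ligands and the other receptor 4 of 5 were higher, with a median of 0.25. Pdgfa, the main ligand of Pdgfra, read 7.98, 7.66 and 8.84 with REST shRNA, against 7.87, 8.14 and 7.72 in control, a difference of 0.25 ± 0.32. Pdgfd, Pdgfrb and Pdgfc differed by 0.25 ± 0.26, 0.27 ± 0.34 and -0.12 ± 0.19, with Pdgfd and Pdgfb below background. Of 10 genes that hold the lineage back 2 were higher and 8 lower, with a median of -0.26 and pair medians of 0.01, -0.70 and 0.10. Hey2, Hes1 and Hes5, effectors of Notch, differed by -0.72 ± 0.39, 0.37 ± 0.26 and -0.30 ± 0.24, and Sox11 by 0.18 ± 0.15. The groups did not overlap for Sox11.

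**Figure D5:**
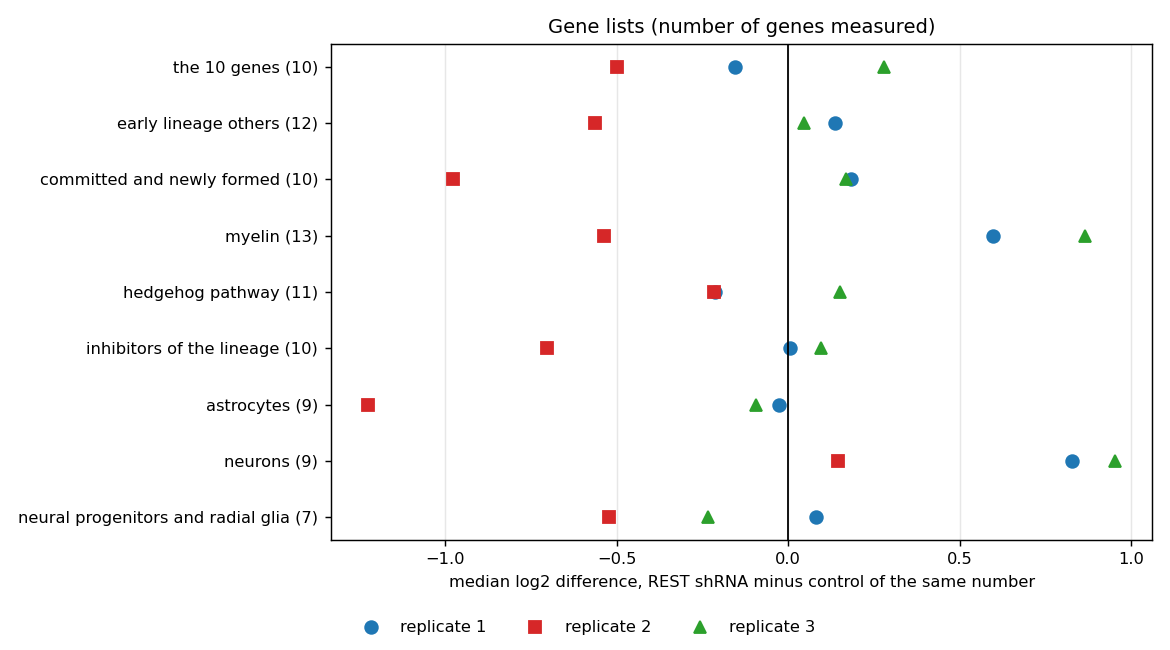
Median log2 difference between the REST shRNA array and the control array of the same number (x axis) for the 10 genes and 8 further lists, with the number of genes measured in brackets. In pair 2 the astrocyte list lies lowest, at -1.22, and the 10 genes at -0.50, while the neuron list is at 0.15.

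Markers of other cells also varied between the arrays. All 9 astrocyte markers were lower with REST shRNA, with a median of -0.37 and pair medians of -0.03, -1.22 and -0.09. Their summed linear signal was 6482 to 17525 on the REST shRNA arrays, the lowest on array 2, and 13929 to 16356 on the control arrays. In the list Gfap read 11.11, 5.58 and 11.73 with REST shRNA, against 9.93, 8.85 and 10.72 in control. Slc1a2, Fgfr3, Aqp4 and Aldh1l1 differed by -0.70 ± 0.20, -0.70 ± 0.34, -1.08 ± 0.83 and -0.37 ± 0.35 (SE), and of these Slc1a2 had groups that did not overlap. Progenitor and radial glia markers were lower for 6 of 7 genes, with a median of -0.30 and pair medians of 0.08, -0.52 and -0.23. The exception was Nestin (Nes), an intermediate filament of progenitors, at 7.95, 9.99 and 6.81 with REST shRNA and 8.39, 8.57 and 6.87 in control. It was thus highest on REST shRNA array 2 and lowest on REST shRNA array 3, the reverse of the brighter probe set of Enpp6. Fabp7, Sox2, Hes5 and Prom1 differed by -0.40 ± 0.24, -0.38 ± 0.23, -0.30 ± 0.24 and -0.36 ± 0.40, and of these Sox2 had groups that did not overlap.

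Among 9 neuronal markers 6 were higher and 3 lower, with a median of 0.44 and pair medians of 0.83, 0.15 and 0.95. Snap25, a known REST target of the synapse, read 9.25, 9.02 and 9.09 with REST shRNA, against 7.37, 7.22 and 8.03 in control. It was higher in all 3 pairs with groups that did not overlap, and had an adjusted limma p of 0.922. Rbfox3, Stmn2 and Elavl3 differed by 0.92 ± 0.29, 1.90 ± 0.84 and 0.68 ± 0.31 (SE), and of these Rbfox3 had groups that did not overlap. Microglial markers were above background for 3 of 6 genes and endothelial markers for 1 of 6, with summed linear signals of 57.6 to 67.4 and 42.3 to 49.7 on the REST shRNA arrays and 53.8 to 54.9 and 42.3 to 45.8 on the control arrays. Aif1, C1qa and P2ry12 of microglia were not above it. Aif1 read 3.99, 2.83 and 3.46 with REST shRNA, against 2.22, 2.50 and 2.48 in control. Its groups did not overlap (1.02 ± 0.30, SE). Olig2 also marks motor neuron progenitors, for which no list was read. Of 5 markers of motor neurons themselves 2 were above background, and Isl1, Mnx1 and Chat were not. The groups did not overlap for Isl1, higher with REST shRNA (0.34 ± 0.16, SE). The summed linear signal of the 5 motor neuron markers was 38.4 to 43.0 with REST shRNA and 36.0 to 38.5 in control. The part of these cell types, of the hybridisation controls and of RNA quality in the values of the 10 genes was not tested.

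The genes with the most alike profiles were sought for 3 members, by the root mean square difference of centred log2 values over the 6 arrays among 13830 other genes above background. Values were not scaled, so genes that vary little lie close to one another on this measure. For Olig2 they were Fbxl14, Tmem248 and Dck, at 0.047 to 0.051. For Pdgfra they were Bbs2, Pdzd11 and Ppp1r3f, at 0.035 to 0.064. For Enpp6 they were Mmp2 at 0.165, Pnpla7 at 0.212 and Fa2h at 0.247, the last being the fatty acid 2-hydroxylase of myelin lipids. Fa2h read 7.52, 5.17 and 9.19 with REST shRNA, against 7.55, 7.50 and 8.48 in control. Like the brighter probe set of Enpp6, it was lowest on REST shRNA array 2 and highest on REST shRNA array 3. Among the 10 genes themselves Gpr17 and Bcas1 differed by 0.347 on this scale and Enpp6 and Myrf by 0.489.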

How the data were processed

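The members and gene lists were chosen with earlier results of these data known. The deposited table holds log2 signals per probe set. That unit was read from the values, since how the authors corrected, summarised and normalized them is not given in the sources used here. Total RNA was extracted with Trizol and labelled with biotin, per the labels' protocols. Array medians were 4.89 to 4.96, so the deposited log2 values were used without further scaling, and 64 control probe sets were left out. GEO's platform annotation gave the names, with 34945 naming 1 gene and 932 naming several, which were not used as members. Gene lists used the probe set with the highest mean. Of 125 list entries 118 were measured, and the other 7 were not analysed here.

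The test was limma 3.58.1 in R 4.3.3 (lmFit, eBayes, group as the sole term, two-sided, 4 residual and 2.9 prior degrees of freedom), with Benjamini-Hochberg adjustment over 45037 probe sets and a threshold of 0.05. It was tested on simulated data with independent noise on each array and no effect of the replicate number. That test therefore does not cover spread between numbers of the kind seen here. Between same-numbered arrays, deviations from group means had correlations of 0.117, 0.282 and 0.402, so the numbers, which come from the titles, were taken to pair them. REST shRNA array 2 also correlated at 0.231 with control array 1, so the pairing of number 1 is weak. The 10 genes were all named, then up to 4 genes per list with the smallest p, and 3 genes of most alike profile for 3 members. Sox10, Pdgfa, Mobp, Gfap, Nes, Snap25 and Acta2 were given by array, and some of these were named after their values were seen. Alternatives were the replicate block, 2 scalings, a filter on dim probe sets, 1 probe set per gene, a trend in the variance, array weights, dropping ambiguous probe sets, and omitting the arrays 1 at a time. Omitting both arrays numbered 2 or 3 was chosen after seeing the data. The 3 arrays per group limit the precision.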

Additional observations from a re-analysis of the deposited data

How the results depend on the processing

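No probe set was called under any of 16 alternatives, so 0 of the 16 probe sets of the 10 genes were called throughout. The replicate block changed no call. The median difference over the 10 genes was -0.13 and ran from -0.47 to 0.06 over the fits without 1 array each. At an unadjusted p under 0.05, 692 probe sets were higher and 868 lower, 1318 and 1243 with array weights, 899 and 675 with arrays centred on their median, 1346 and 1367 on omitting REST shRNA array 1, 1434 and 1346 on omitting REST shRNA array 2, and 324 and 513 on omitting control array 1.

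Signs of single probe sets, none of them called, did turn, and the cause was not tested. Probe sets of a gene are counted from the brightest. Centring arrays on their median gave 0.010 for the first probe set of Cspg4 and 0.023 for the second of Bcas1. Array weights gave -0.11 for Olig1, -0.18 for Olig2, 0.024 for the second of Pdgfra, 0.16 for the second of Bcas1 and 0.35 for the first of Enpp6. Without both arrays numbered 2 the values were -0.044 for Olig1, -0.14 for Olig2, 0.015 and -0.018 for the second and the third of Pdgfra, 0.073 for Gpr17 and 0.55 for the first of Enpp6. Without both arrays numbered 3 they were -0.021 for Olig1, -0.077 for Olig2, -0.10 for Nkx6-2, 0.073 and -0.035 for the second and the third of Bcas1 and -0.43 for Myrf.

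Over the fits without 1 array each, Olig1 ran from -0.078 to 0.12, Olig2 from -0.16 to 0.22, Nkx2-2 from -0.83 to 0.039, Nkx6-2 from -0.035 to 0.35, the second of Pdgfra from -0.29 to 0.11 and the third from -0.067 to 0.10. The first of Cspg4 ran from -0.21 to 0.16, Gpr17 from -1.25 to 0.18, the 3 of Bcas1 from -0.75 to 0.18, -0.35 to 0.41 and -0.25 to 0.32, those of Enpp6 from -1.26 to 0.84 and -1.27 to 0.35, and Myrf from -0.78 to 0.90. The first of Pdgfra ran from -0.42 to -0.061 and the second of Cspg4 from -0.37 to -0.053.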
